A study of Homo sapiens with 26 samples.

Results

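The comparison described here asks how the set of transcripts being translated at the outer mitochondrial membrane (OMM) differs between LARP4 null and wild-type HEK293T cells, a human embryonic kidney line. It uses 8 of the 26 samples of the series, chosen by their labels as the RNA-seq libraries of those genotypes. Libraries labelled as made without cycloheximide (CHX), a translation elongation inhibitor that holds ribosomes on mRNA, were left out. For each genotype 2 replicates were made, each a lysate from which the total RNA and the RNA pulled down were both sequenced. Wild-type cells carried a negative control gRNA, and the LARP4 null cells are 1 monoclonal knock-out line, so that what belongs to the clone and what belongs to the loss of LARP4 cannot be told apart. The titles of these libraries do not name CHX, and treatment of the null line with it is taken from the general protocol. In all these lines the ribosomal protein RPL29 carries the Avi tag, a peptide that the biotin ligase BirA modifies, and LOV-BirA, a form of that ligase switched on by blue light, is anchored to the OMM by the transmembrane domain of OMP25. Streptavidin then isolates ribosomes biotinylated near the OMM together with their mRNAs.

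LARP4 is a La-related protein that binds poly(A) and the poly(A)-binding protein and is known to protect mRNAs from deadenylation. It is also known to associate with AKAP1, a scaffold of the OMM that binds RNA and signaling proteins and that has been proposed to recruit LARP4. Most mitochondrial proteins are encoded in the nucleus, and the mRNAs of many are translated close to the organelle into which the proteins are imported. The respiratory chain is assembled from many small subunits, and most of these have short coding sequences.

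The enrichment of a gene in a lysate was the log2 ratio of CPM, the counts of a gene scaled to a common library total, pulldown over total input, with 0.5 counts added, and the change in enrichment is its value in LARP4 null minus its value in wild-type cells. Of 60663 genes in the files, 14142 had a mean of at least 64 reads over the 4 total inputs and were tested. Fitted changes, their standard errors and their p-values came from the quasi-likelihood test of edgeR, two-sided and adjusted by Benjamini-Hochberg over all genes tested, and a gene was called at an adjusted p below 0.05. Genes said to have fallen or risen in 1 lysate are those called in the fit with that null lysate alone. Nothing in the labels says that replicates are separate cultures, so p-values measure the spread between these lysates.

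Libraries held from 38347615 to 100840544 counts. LARP4 itself (chromosome 12, 50392383 to 50480004, plus strand, GRCh38) was read at 225 and 231 CPM in the wild-type total inputs and at 79.3 and 74.0 CPM in the LARP4 null total inputs. Both null inputs lay below both wild-type inputs, by 1.56 on the log2 scale (change of -1.56, SE 0.12, adjusted p = 0.0417 by edgeR), the single gene called lower of 14142 (0.00707%). With any 1 replicate left out the change ranged from -1.61 to -1.50 and was no longer called. Counts per gene cannot show a small insertion or deletion, and LARP4 mRNA was reduced rather than absent. The 6 markers of HEK293T cells ranged from 3.88 to 498 CPM in the total inputs, and 7 markers of blood, endothelium, liver, muscle, glia and fibroblasts reached at most 0.585 CPM. Genes of the mitochondrial genome were listed at 0 in every library.

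LARP4 null lysate 2 stood apart from the other 3. The standard deviation of enrichment over all genes was 0.78 and 0.83 in the wild-type lysates, 0.74 in LARP4 null lysate 1 and 0.61 in lysate 2. As a function of enrichment in wild-type lysate 1, the slope over genes was 1.01 for wild-type lysate 2, 0.89 for LARP4 null lysate 1 and 0.55 for LARP4 null lysate 2. In the lysates of AKAP1 null cells, outside the comparison, the standard deviation was 0.64 and 0.66 and this slope 0.62 and 0.64. RNA of nuclear genes that do not encode proteins made up 2.69% of the pulldown of lysate 2, against 1.58%, 1.69% and 1.61% in the other 3 pulldowns and from 2.91% to 3.38% in the total inputs. The gene with the most reads in that pulldown was MALAT1, a nuclear long noncoding RNA, while in the other 3 it was RPS6, a protein of the small ribosomal subunit. The part of these differences in the changes below was not tested, so the changes of the gene groups that were lower or higher are given for lysate 1 and lysate 2 beside those for both together. In the fits of 1 null lysate, that lysate is assumed to vary like those of the other genotypes. The LARP4 null lysates differed from each other more than that. The standard deviation over genes of the difference in enrichment between replicates was 0.53 in LARP4 null, 0.26 in wild-type and 0.285 in AKAP1 null cells. The p-values and calls of those fits leave this larger spread out.

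With both null lysates in the fit, no gene was called: 0 of 14142 lower (0%) and 0 higher (0%), the smallest adjusted p being 0.159. At an unadjusted p below 0.05, 657 genes were lower (4.65%) and 1638 higher (11.6%). The Wald test of DESeq2 on the same library totals called 231 genes lower (2.67% of the 8658 genes to which it gave an adjusted p) and 16 higher (0.185%). The median change over all genes was 0.17 on the log2 scale when library totals set the scale and -0.04 under TMM (trimmed mean of M values), so group medians are also given relative to the median of all genes. Both null lysates lay below both wild-type lysates for 1702 genes (12%) and above both for 6125 genes (43.3%).

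Transcripts of short mitochondrial proteins had lower enrichment at the OMM in both LARP4 null lysates. The short OMM class comprises 31 nuclear-encoded mitochondrial genes with a protein below 200 aa whose footprints from OMM-labelled ribosomes were enriched by more than 1.5 on the log2 scale, data that are independent of the libraries compared here. Its median enrichment was 2.04 and 2.19 in the wild-type lysates and 1.48 and 1.16 in the LARP4 null lysates. For every one of the 31 genes both null lysates lay below both wild-type lysates, where 12% of all genes did so. The median change was -0.76, or -0.93 relative to all genes, and the members ranged from -1.07 to -0.47. None was called by edgeR with both lysates, all 31 had an unadjusted p below 0.05, and DESeq2 called 27 lower. In lysate 1 alone 19 of the 31 fell (97 of all 14142 genes, 0.686%), with a median of -0.61, and in lysate 2 alone all 31 fell (1136 of all genes, 8.03%), with a median of -0.92. With either wild-type lysate left out, no gene at all was called lower in lysate 1. The difference lay in the pulldowns, where the class was lower by a median of 0.96 (change of -0.96 in log2 CPM), against -0.13 in the total inputs.

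Among the members with the largest changes, ATP5MC1 (chromosome 17), a copy of the membrane-embedded c subunit of ATP synthase, had an enrichment of 2.53 and 2.60 in the wild-type lysates and of 1.66 and 1.34 in the LARP4 null lysates. Its null and wild-type lysates did not overlap, and the fitted change was -1.07 (SE 0.15, adjusted p = 0.159). UQCRQ (chromosome 5), a small subunit of complex III, went from 2.705 and 2.82 to 1.93 and 1.69, a change of -0.96 (SE 0.13, adjusted p = 0.159). COX5B and COX6C are subunits of cytochrome c oxidase, the terminal complex of the respiratory chain, and NDUFA4 is associated with it. COX5B had enrichments of 2.64 and 2.76 in wild-type and of 1.91 and 1.55 in null cells, COX6C of 2.41 and 2.62 against 1.75 and 1.39, and NDUFA4 of 2.37 and 2.47 against 1.603 and 1.40. Lysate 2 was the lower of the null lysates for each of these genes. In each lysate alone all 5 passed the test, with changes from -0.90 (ATP5MC1) to -0.77 (COX6C) in lysate 1 and from -1.23 (ATP5MC1) to -1.02 (NDUFA4) in lysate 2.

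Null lysate 2 was also the lowest for 3 other transcripts of short mitochondrial proteins. COX7A2 enrichment was 2.74 and 2.85 in wild-type and 1.99 and 1.80 in LARP4 null lysates, a change of -0.90 (SE 0.16, adjusted p = 0.159), and that of COX6A1, which had too few footprints to enter the class, was 3.80 and 3.80 against 3.15 and 2.87, a change of -0.79 (SE 0.14, adjusted p = 0.159). Both encode small subunits of cytochrome c oxidase. NDUFB9, a subunit of complex I, was the member of the short class with the highest enrichment, at 3.64 and 3.75 in wild-type and still at 3.34 and 3.04 in null lysates. Its change of -0.50 (SE 0.15, adjusted p = 0.303) was called in lysate 2 (adjusted p = 0.000552) but not in lysate 1 (adjusted p = 0.387).

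**Figure D1:**
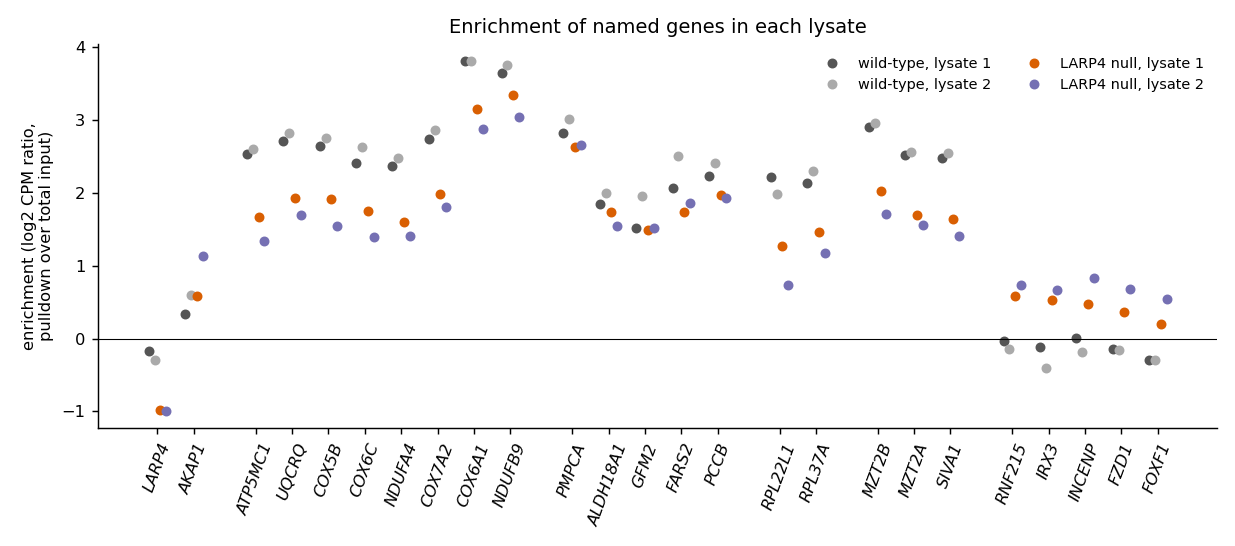
Enrichment (log2 CPM ratio, pulldown over total input) of named genes in each of the 4 lysates, grouped from left to right as LARP4 and AKAP1, transcripts of short and of long mitochondrial proteins, cytosolic ribosomal proteins, other transcripts with small p-values, and the 5 with the smallest p-values among higher genes. Short transcripts such as ATP5MC1 (2.53 and 2.60 in wild-type, 1.66 and 1.34 in LARP4 null lysates) separate by genotype, and LARP4 null lysate 2 is the lowest for most of them.

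Subunits of the respiratory chain were lower as a group. Of 61 oxidative phosphorylation (OXPHOS) subunits tested, 56 had both null lysates below both wild-type lysates and 0 above. Among all genes 12% lay below and 43.3% above in this way. The subunits had a median change of -0.64 (-0.81 relative to all genes), or -0.49 in lysate 1 and -0.83 in lysate 2. Over all genes the median change was 0.10 in lysate 1 and 0.21 in lysate 2. By complex, the median change was -0.67 for 25 subunits of complex I, -0.48 for 8 of complex III, -0.89 for 9 of complex IV and -0.67 for 15 of complex V. In lysate 1 these medians were -0.50, -0.37, -0.74 and -0.49, and in lysate 2 they were -0.84, -0.64, -0.99 and -0.84. NDUFA2 and NDUFS5 had the largest changes in complex I, at -0.90 and -0.85, and neither null lysate overlapped a wild-type lysate. UQCRB of complex III changed by -0.71 and was called in lysate 2 only (adjusted p = 0.064 in lysate 1), and ATP5ME of complex V by -0.85. The level of these mRNAs in the total inputs was close between genotypes, with a median change of -0.07 over the OXPHOS subunits. None was called there by edgeR, where of all 14142 genes only 1 was called lower and 1 higher (0.00707% each).

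Transcripts of long mitochondrial proteins had a smaller median change. The long OMM class, chosen in the same way with a protein above 400 aa, holds 50 genes, whose median enrichment was 0.98 and 1.31 in wild-type and 0.93 and 1.11 in LARP4 null lysates, so that the medians overlapped. Its median change was -0.18 (-0.35 relative to all genes), with -0.18 in lysate 1 and -0.14 in lysate 2. No member was called with both lysates. Under TMM the median of the class was -0.30 in lysate 1 and -0.44 in lysate 2, where all genes had -0.02 and -0.09. Both null lysates lay below both wild-type lysates for 26 of the 50, and above for 0, where 12% and 43.3% of all genes did so. PMPCA, the alpha subunit of the protease that removes mitochondrial presequences, had enrichments of 2.82 and 3.02 in wild-type and of 2.63 and 2.66 in null lysates, a change of -0.27 (SE 0.17, adjusted p = 0.377). ALDH18A1, an enzyme of proline synthesis, had 1.85 and 2.00 against 1.73 and 1.54, and GFM2, a mitochondrial ribosome recycling factor, had 1.52 and 1.96 against 1.49 and 1.52. The null lysates lay below the wild-type lysates for ALDH18A1 and overlapped with them for GFM2, and the changes of -0.29 and -0.23 did not pass the test (adjusted p = 0.326 and 0.426), although ALDH18A1 fell in lysate 2 alone (-0.38, adjusted p = 0.038).

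The largest changes within the long class were those of FARS2 and IARS2, mitochondrial phenylalanyl- and isoleucyl-tRNA synthetases, at -0.49 and -0.45, of METTL17, a factor of mitochondrial ribosome assembly, at -0.38, of PCCB, a subunit of propionyl-CoA carboxylase, at -0.37, and of AKAP1, at 0.39, with adjusted p from 0.303 to 0.327. In lysate 2 alone FARS2, IARS2 and PCCB fell (adjusted p = 0.0358, 0.00923 and 0.0366), whereas in lysate 1 none of the 5 was called. AKAP1 transcripts had an enrichment of 0.34 and 0.60 in wild-type and of 0.59 and 1.13 in null lysates. The higher value came from lysate 2, where the change was 0.66 (adjusted p = 0.000254), against 0.12 (adjusted p = 0.7) in lysate 1. SUPV3L1 and TBRG4, long mitochondrial transcripts outside the class that act in mitochondrial RNA metabolism, changed by 0.02 and 0.05, with all 4 lysates between -0.11 and 0.02 and a change of -0.19 and -0.17 under TMM. The 15 mitochondrial tRNA synthetases had a median change of -0.18, or -0.20 in lysate 1 and -0.16 in lysate 2, and none was called with both lysates. Under TMM their median was -0.33 in lysate 1 and -0.46 in lysate 2.

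**Figure D2:**
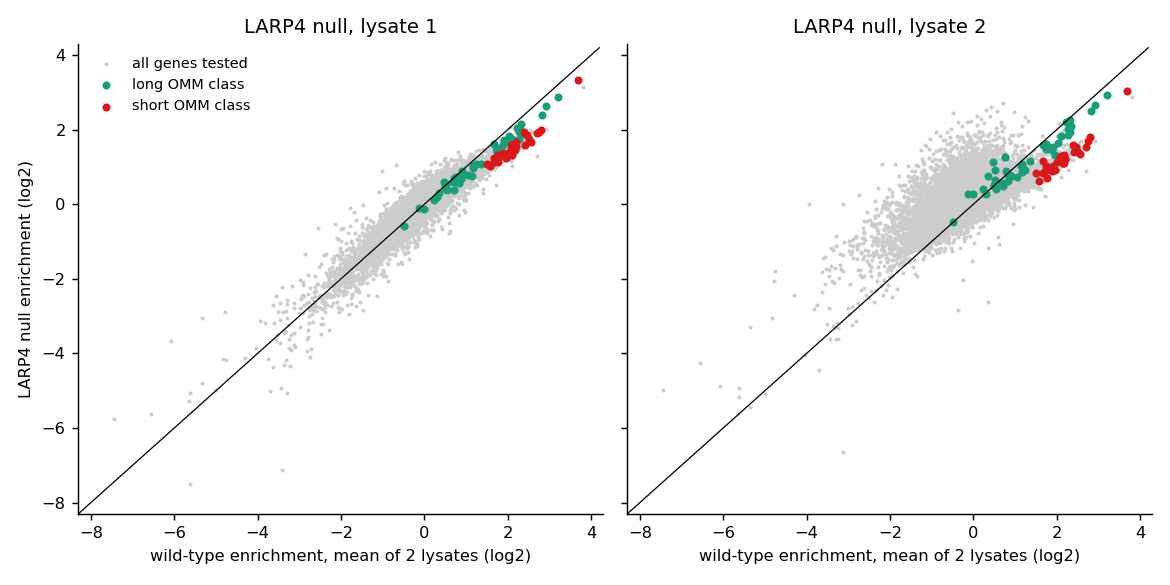
Enrichment in LARP4 null lysate 1 (left) and lysate 2 (right) against the mean of the wild-type lysates, both log2 CPM ratios, with 1 point per gene tested and the line of equal enrichment. The short OMM class (31 genes) lies below the line in both lysates, the long class (50 genes) stays near it, and in lysate 2 the cloud of all genes is flatter (slope of 0.55 on wild-type lysate 1, against 0.89 in lysate 1).

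Transcripts of cytosolic ribosomal proteins, which are not mitochondrial but are enriched in these pulldowns, were lower to a similar degree. Of 85 tested, 81 had both null lysates below both wild-type lysates and 1 had both above, where 12% and 43.3% of all genes did so. Their median enrichment was 1.40 and 1.49 in wild-type and 0.96 and 0.71 in LARP4 null lysates, and the median change was -0.59 (-0.76 relative to all genes), or -0.47 in lysate 1 and -0.69 in lysate 2. With both lysates DESeq2 called 52 of them lower, against 2.67% of all genes to which it gave an adjusted p. RPL37A, of the large subunit, went from 2.13 and 2.30 to 1.46 and 1.17, a change of -0.90 (SE 0.14, adjusted p = 0.159). RPL22L1, a paralog of RPL22, had the largest change, of -1.09 (SE 0.21), and its enrichments of 2.21 and 1.98 in wild-type and of 1.28 and 0.74 in null lysates did not overlap, but its mRNA in the total inputs also varied widely, at 180 and 56.2 CPM in wild-type and 53.8 and 21.9 CPM in null cells. Ribosomal protein genes have many processed pseudogenes, so their counts are uncertain as far as reads could be assigned to either copy.

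Ribosomal protein mRNAs typically start with a 5′ terminal oligopyrimidine (TOP) tract, a C at the start site followed by a run of C or T bases, and the starts are shown because transcripts with and without such a tract had lower enrichment. The lines give the first 24 bases from the RefSeq start site (GRCh38.p14), 5′ to 3′ on the gene's strand, with the C and its pyrimidine run in capitals where the C is followed by at least 4 pyrimidines.
RPL22L1, chr3:170870172-170870195, minus strand: CTCTCTgctctcgcggccgactcg
RPL37A, chr2:216498844-216498867, plus strand: CTTTCTgggctcggacctaggtcg
RPS29, chr14:49598687-49598710, minus strand: tggcagcggtggttgtttctgttc
ATP5MC1, chr17:48892787-48892810, plus strand: aggacacgtgggtgggggaagctg
COX5B, chr2:97646062-97646085, plus strand: agttttgctgctagtcgcggacgc
UQCRQ, chr5:132866642-132866665, plus strand: gaacgagtcaaccggatcggtgac
PMPCA, chr9:136410658-136410681, plus strand: ggagacgcaagatggcggctgtgg
Such a start was found in 45 of the 68 cytosolic ribosomal protein genes with a RefSeq entry (66.2%), in 3 of 28 genes of the short class (10.7%), in 2 of 44 of the long class (4.55%) and in 567 of 10615 genes tested (5.34%), against 4.04% of all 27305 entries. Start sites in RefSeq can be off by some bases, as in RPS29, which carries no such tract at the listed position. The 14 translation factors whose mRNAs are known to carry TOP tracts had a median change of 0.02. It was 0.05 in lysate 1 and -0.12 in lysate 2, or -0.42 in lysate 2 under TMM. EEF1B2, a subunit of elongation factor 1, had the largest change among them, at -0.46 (SE 0.13, adjusted p = 0.303).

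Other mitochondrial groups had smaller median changes. The 68 mitochondrial ribosomal proteins had a median enrichment of 0.94 and 1.02 in wild-type and 0.76 and 0.52 in LARP4 null lysates. Their median change was -0.34 (-0.24 in lysate 1 and -0.46 in lysate 2). Both null lysates lay below both wild-type lysates for 55 of them, where 12% of all genes did so. CHCHD1, of the small mitochondrial subunit, and MRPL21, of the large one, had changes of -0.70 and -0.69. The 26 components of the TOM and TIM import machinery had a median change of -0.17, with -0.04 in lysate 1 and -0.27 in lysate 2. TIMM8B and TIMM10, small chaperones of the intermembrane space, changed by -0.74 and -0.72 and passed in each lysate alone. The 14 TCA cycle genes had a median of -0.15, with -0.13 in lysate 1 and -0.20 in lysate 2. SDHB and SUCLG1 showed the largest changes of the TCA list, at -0.46 and -0.42. Each changed by -0.29 in lysate 1, and in lysate 2 they changed by -0.63 and -0.54. The 45 SLC25 carriers, multi-pass proteins of the inner membrane, had a median of -0.01, with 0.06 in lysate 1 and -0.07 in lysate 2. Their largest change was that of UCP3, at 1.25 (SE 0.59, with 0.37 in lysate 1 and 1.90 in lysate 2). Its null and wild-type lysates overlapped, and it was read by only 21 and 42 counts in the wild-type pulldowns. It was followed by SLC25A37, the iron importer mitoferrin-1, at 0.77 (0.16 and 1.37). Over all 1022 nuclear-encoded mitochondrial genes tested the median change was -0.12, with -0.07 in lysate 1 and -0.17 in lysate 2. Over all genes tested these medians were 0.17, 0.10 and 0.21.

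Transcripts without a mitochondrial product but with the same footprint enrichment at the OMM were also lower. For 73 such genes the median enrichment was 1.68 and 1.75 in wild-type and 1.27 and 1.02 in LARP4 null lysates. Their median change was -0.59 (-0.45 in lysate 1 and -0.73 in lysate 2). Both null lysates lay below both wild-type lysates for 66 and above for 1, where 12% and 43.3% of all genes did so. MZT2B, a component of the gamma-tubulin complex, went from 2.90 and 2.96 to 2.03 and 1.71 and its near-identical copy MZT2A from 2.51 and 2.56 to 1.69 and 1.55, values that are uncertain as far as reads could be assigned to either copy. SIVA1, a short pro-apoptotic protein, had 2.47 and 2.54 against 1.64 and 1.41. These 3, together with ATP5MC1 and UQCRQ, had the smallest p-values of all genes with a lower enrichment. The 33 proteasome subunits had a median change of -0.13, with -0.02 in lysate 1 and -0.25 in lysate 2. PSMB6 had the largest change among the lower ones (change of -0.65, SE 0.15, adjusted p = 0.202).

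**Figure D3:**
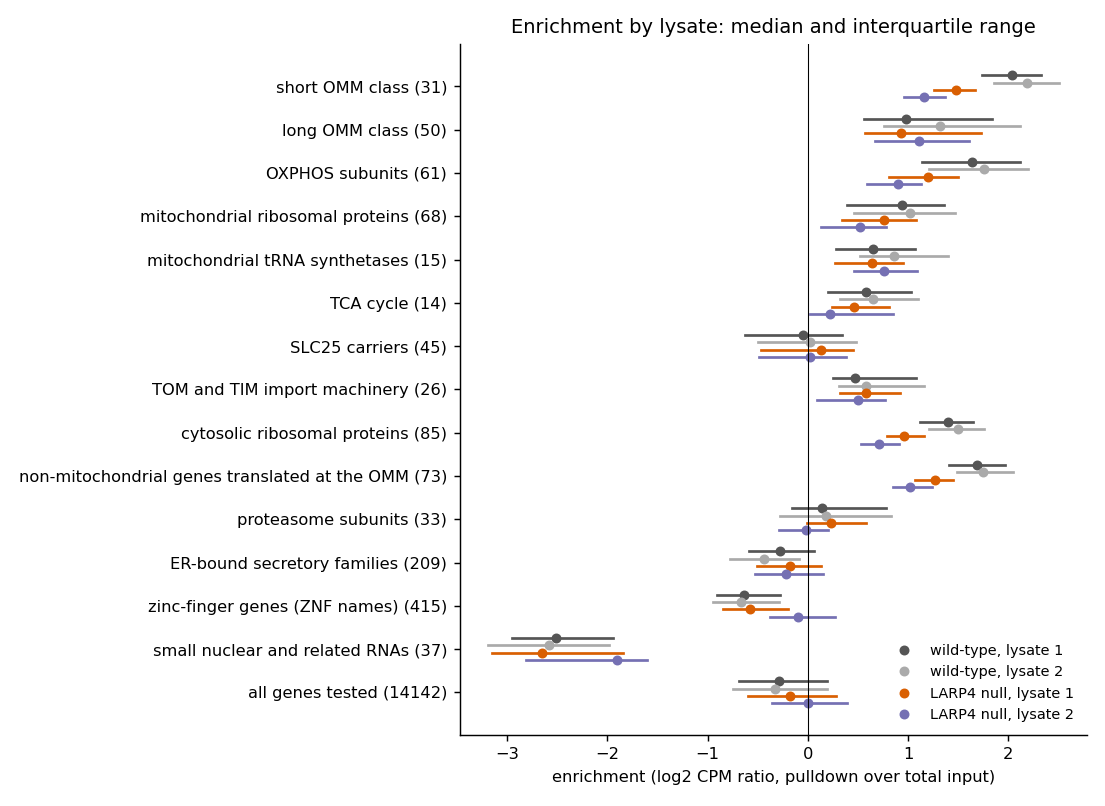
Median (point) and interquartile range (line) of enrichment in each of the 4 lysates for groups of genes, with the number tested in brackets. The short class, OXPHOS subunits, cytosolic ribosomal proteins and non-mitochondrial genes translated at the OMM are lower in both LARP4 null lysates than in both wild-type lysates, while zinc-finger genes and small nuclear RNAs have their highest medians in LARP4 null lysate 2 (-0.10 and -1.91).

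The null lysates differed in how many genes they called and in which. Lysate 1 called 97 genes lower and 3 higher (0.0212%). Of the 97, 48 were mitochondrial, 21 were OXPHOS subunits, 17 were cytosolic ribosomal proteins and 88 had a protein below 200 aa. Of all 14142 genes tested, 1022 were mitochondrial, 61 OXPHOS subunits and 85 cytosolic ribosomal proteins. Among protein-coding genes tested, 241 had a protein under 100 aa and 1245 one from 100 to below 200 aa. The lower genes of lysate 1 had a median change of -0.64 in lysate 1 and -0.92 in lysate 2, measured against the same wild-type lysates. The 3 higher genes were PLXNA4 (change of 1.75, adjusted p = 0.0334), IRX3 (0.80, adjusted p = 0.0389) and the noncoding gene ENSG00000263731 (1.34, adjusted p = 1.32e-05). PLXNA4, a receptor for semaphorins, was read by only 28 counts in the total input of that lysate against 203 to 321 in the other 3 inputs. In lysate 2 its change was 0.43. ENSG00000263731 stood at 490 CPM in the total input of lysate 1 against 40.8 to 45.5 CPM in the other 3 inputs, and its change in lysate 2 was 0.20.

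Lysate 2 called 1136 genes lower and 4623 higher (32.7%). The lower genes included 298 mitochondrial genes, 53 OXPHOS subunits and 76 cytosolic ribosomal proteins, and 597 of them had a protein below 200 aa. The higher genes had a median protein length of 738 aa, and 626 were long noncoding RNAs and 268 zinc-finger genes. The same 14142 genes tested included 1312 long noncoding RNAs and 415 zinc-finger genes, besides the group sizes given above. The higher genes of lysate 2 had a median enrichment in wild-type of -0.65. Their median change was 0.71 in lysate 2 and 0.14 in lysate 1. With lysate 2 scaled by TMM, the split of its calls turned to 3226 lower and 2257 higher.

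Zinc-finger genes, whose mRNAs are depleted from the OMM pulldown, rose in lysate 2. The median enrichment of the 415 tested was -0.10 there, against -0.64 and -0.67 in wild-type and -0.57 in LARP4 null lysate 1. Over all genes tested these medians were 0.00, -0.29, -0.33 and -0.18. Both null lysates lay above both wild-type lysates for 228 of the 415 (54.9%), where 43.3% of all genes did so. The median change was 0.09 in lysate 1 and 0.53 in lysate 2, against 0.10 and 0.21 over all genes. ZNF23 and ZNF91 had the largest changes, with enrichments in lysate 2 of 1.05 and 0.07 against -0.20 and -0.97 in lysate 1, where ZNF91 was read by only 10 counts in the total input and 6 in the pulldown. The 1312 long noncoding RNAs had a median enrichment of 0.20 in lysate 2 and from -0.46 to -0.42 in the other 3 lysates. Their median change was -0.02 in lysate 1 and 0.66 in lysate 2. MALAT1 alone had 5275 CPM in the pulldown of lysate 2 against 918 to 1295 CPM in the other 3 pulldowns, and from 2136 to 2536 CPM in all 4 total inputs. KCNQ1OT1, another nuclear noncoding RNA, had an enrichment of 0.54 in lysate 2 and from -1.38 to -1.15 elsewhere. For 37 small nuclear and related RNAs the median enrichment was -1.91 in lysate 2 and from -2.65 to -2.52 in the other 3. What moved these RNAs in 1 lysate was not tested.

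Pairing each null lysate with a different wild-type lysate, so that the changes compared share no library, the changes in lysate 1 and lysate 2 had a Pearson's r of 0.67 across 1022 mitochondrial genes and of 0.77 across 85 cytosolic ribosomal proteins, but of 0.17 across all 14142 genes and of 0.0079 across 415 zinc-finger genes. With the pairing exchanged these were 0.60, 0.73, 0.21 and 0.03. Genes are not independent replicates, and each pair of changes shares the 2 cell lines.

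In both lysates the median change was lowest for the shortest proteins, among mitochondrial and other genes, and above 200 aa the medians of lysate 1 did not follow length. For mitochondrial genes with a protein under 100 aa the median change was -0.46 in lysate 1 and -0.72 in lysate 2 (58 genes). From 100 to below 200 aa it was -0.24 and -0.50 (198 genes), from 200 to below 400 aa -0.02 and -0.17 (402 genes), from 400 to below 800 aa -0.05 and -0.03 (313 genes), and from 800 aa on 0.01 and 0.16 (50 genes). For genes that are not mitochondrial the medians over the same ranges were -0.11 and -0.33 (183 genes), 0.01 and -0.19 (1047 genes), 0.12 and 0.03 (2938 genes), 0.14 and 0.24 (4221 genes) and 0.13 and 0.48 (2776 genes). Wild-type enrichment itself also declines with length, from medians of 0.88 and 0.95 under 100 aa to -0.61 and -0.71 from 800 aa on over all protein-coding genes.

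**Figure D4:**
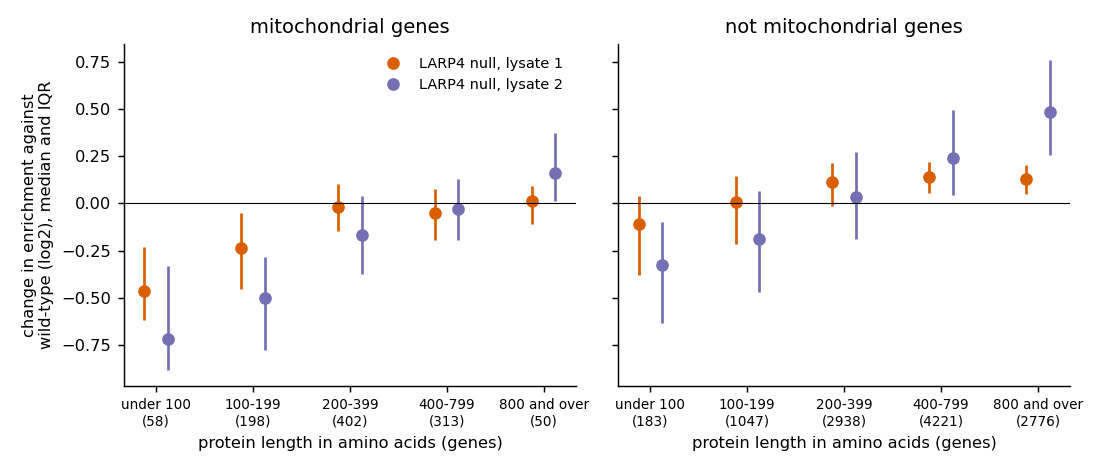
Change in enrichment against wild-type (log2, edgeR fit of 1 LARP4 null lysate) by protein length for mitochondrial (left) and other protein-coding genes (right), with points for medians, lines for interquartile ranges and the number of genes in brackets. Medians are lowest for proteins under 100 aa (-0.46 and -0.72 for mitochondrial genes), and lysate 2 alone has high medians for the longest proteins (0.48 outside mitochondria).

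Since short-class transcripts are among the most enriched in wild-type cells, genes were also grouped by their enrichment in wild-type lysate 1, and the difference from wild-type lysate 2 was taken, so that the noise of 1 library does not enter both. Between 1.5 and 2 in wild-type lysate 1, the median difference in LARP4 null lysates 1 and 2 was -0.58 and -0.89 for 15 short-class genes, -0.51 and -0.82 for 69 other mitochondrial genes, -0.62 and -0.86 for 28 cytosolic ribosomal proteins and -0.48 and -0.77 for 101 other protein-coding genes. These 4 groups of the same wild-type enrichment were thus at -0.62 to -0.48 in lysate 1 and at -0.89 to -0.77 in lysate 2. The 11 long-class genes of that range had -0.42 and -0.43, of which -0.31 was also present between the wild-type lysates themselves, where the other 4 groups differed by -0.11 to -0.09. Between 2 and 2.5 the medians were -0.69 and -1.05 for 11 short-class genes and -0.63 and -0.93 for 17 other mitochondrial genes. They were -0.70 and -1.04 for 7 cytosolic ribosomal proteins and -0.67 and -0.94 for 21 other protein-coding genes. The 6 long-class genes of this range had -0.43 and -0.41, of which -0.27 was also present between the wild-type lysates. At the other end, other protein-coding genes with an enrichment up to -1 in wild-type lysate 1 (1030 genes) stood at 0.14 in null lysate 1 and at 0.64 in null lysate 2.

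**Figure D5:**
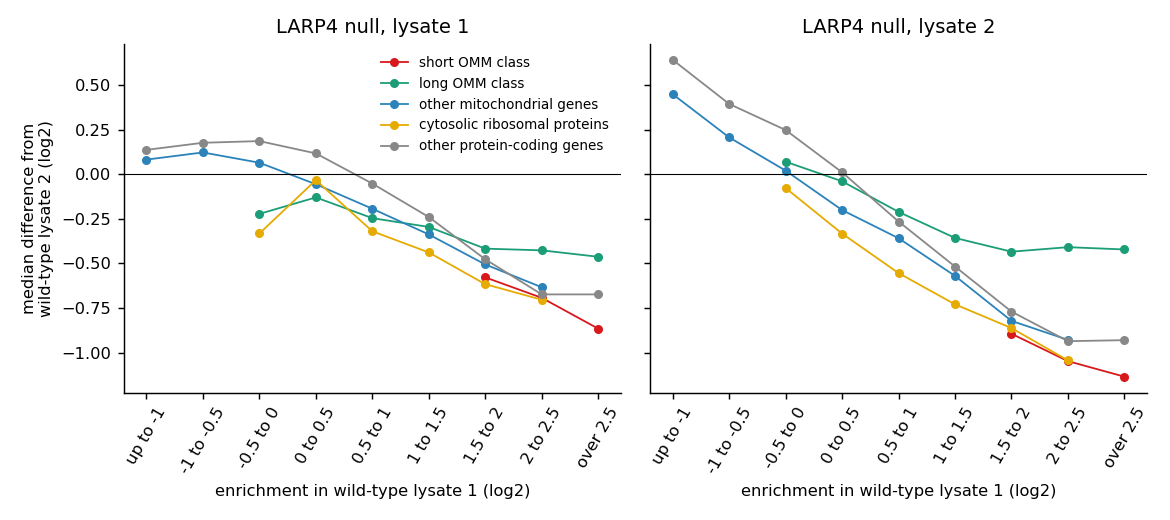
Median difference between a LARP4 null lysate and wild-type lysate 2 (log2 enrichment) for genes grouped by their enrichment in wild-type lysate 1, shown for groups of at least 3 genes. Short-class genes lie at -0.58 and -0.89 between 1.5 and 2, and other protein-coding genes at 0.14 and 0.64 up to -1 and at -0.48 and -0.77 between 1.5 and 2. The order of neighbouring bins is not the same in every group.

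AKAP1 null cells, compared with the same wild-type libraries, are given beside LARP4 null cells for scale only. The short class had a median enrichment of 0.46 and 0.32 in AKAP1 null lysates and a median change of -1.83, against -0.76 in LARP4 null cells. In the long class the median enrichment was 2.19 and 2.73 and the median change 1.28, against -0.18. The mitochondrial tRNA synthetases changed by a median of 1.14 in AKAP1 null and of -0.18 in LARP4 null cells, and cytosolic ribosomal proteins by -1.27 and -0.59. COX7A2 changed by -2.27 in AKAP1 null and by -0.90 in LARP4 null cells, and PMPCA by 1.16 and -0.27.

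The 5 genes with the smallest p-values among those with higher enrichment were RNF215, the transcription factors IRX3 and FOXF1, the Wnt receptor FZD1 and INCENP, a subunit of the chromosomal passenger complex. RNF215 had enrichments of -0.04 and -0.14 in wild-type and of 0.58 and 0.73 in null lysates, a change of 0.75 (SE 0.15, adjusted p = 0.167). IRX3 had -0.12 and -0.41 against 0.53 and 0.67, and INCENP 0.01 and -0.19 against 0.48 and 0.82. FZD1 and FOXF1 stood at or below -0.14 in wild-type and from 0.19 to 0.68 in null lysates. For all 5 both null lysates lay above both wild-type lysates. Their changes ran from 0.49 to 0.80 in lysate 1 and from 0.82 to 0.93 in lysate 2.

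Of 21 LARP proteins, AKAP1 and other OMM RNA-binding partners, 1 fell in lysate 1 and 1 fell and 6 rose in lysate 2, where 32.7% of all genes rose, and the median change was 0.14. The gene that fell was LARP4 itself, whose remaining mRNA had enrichments of -0.98 and -0.99 in null lysates against -0.17 and -0.29 in wild-type (change of -0.76, SE 0.13, adjusted p = 0.159, called at 0.0109 in lysate 1 and at 0.000101 in lysate 2). LARP4B, its closest paralog, was at -0.38 and -0.50 in wild-type and at -0.31 and -0.29 in null lysates. The 16 components of the CCR4-NOT and PAN deadenylases, which shorten poly(A) tails, had a median change of 0.14, with 3 that rose in lysate 2, against the same 32.7%, and none called in lysate 1, PAN2 and TOB2 having the largest changes at 0.42 and 0.34. The 45 replication-dependent histone genes had a median change of 0.06, with 0.17 in lysate 1 and -0.05 in lysate 2, or -0.35 in lysate 2 under TMM. Their mRNAs lack poly(A) tails, and the labels give polyA RNA whereas the study's methods describe depletion of rRNA.

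The lists tied to other compartments had medians near or below that of all genes. The 209 ER-bound secretory genes had a median change of 0.16, with 0.18 in lysate 1 and 0.14 in lysate 2. Under TMM their median in lysate 2 was -0.16, where all genes had -0.09, so its sign depends on the scaling. The 17 glycolytic enzymes had a median of 0.00, with 0.09 in lysate 1 and -0.08 in lysate 2. For 20 stress response genes it was 0.10, with 0.16 and 0.07, where all genes had 0.10 and 0.21 in lysates 1 and 2. ASNS, asparagine synthetase and a target of the integrated stress response, was the stress gene with the largest change, with enrichments of -1.99 and -1.50 in wild-type and of -1.05 and -0.02 in null lysates (change of 1.31, SE 0.45, adjusted p = 0.303), the change being 0.72 in lysate 1 and 1.75 in lysate 2. ASNS was read by only 44 and 42 counts in the wild-type pulldowns and by 35 and 113 in the null pulldowns. HSPA1B, an inducible HSP70, had enrichments of -0.47 and -0.58 in wild-type and of -0.11 and -0.08 in null lysates (change of 0.43, SE 0.13, adjusted p = 0.303).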

How the data were processed

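RNA-seq libraries of total input and pulldown were compared for wild-type and LARP4 null cells, 2 lysates each. The authors' methods give alignment of read pairs to GRCh38 by STAR and featureCounts for the deposited count of each gene, while the submitters' processing notes name Bowtie. From 3 to 5 lines per library of the comparison that belong to 1 broken entry were left out. For ribosome profiling, used only to define the OMM classes, the authors deposited estimated counts and RPKM per coding sequence, with a minimum of 64 total-input footprints for a gene. The quasi-likelihood test of edgeR 4.0.16, run under R 4.3.3, took 12 libraries, AKAP1 null included to estimate the spread, with 1 term per lysate, an effect of pulldown per genotype and library totals as scale, and TMM for total inputs alone. That a pulldown and its input are 1 lysate follows from the study's methods. DESeq2 1.42.0, TMM, other minimums, other terms for lysates, other totals and leaving out each replicate were alternatives. The test was tested on simulated data. Other steps ran in Python 3.11.15 (pandas 2.3.3, matplotlib 3.10.9), with names, coordinates and protein lengths from GENCODE 44 (60462 genes matched). Genes named are a list that covers examples used by the study, those called with the largest changes or, where under 5 were called in a direction, those with the smallest p-values, the 5 largest changes of each OMM class and the 2 largest of every other list, and any others were named after their values were seen. Members, lists and rules were chosen with earlier results of these data known.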

Additional observations from a re-analysis of the deposited data

How the results depend on the processing

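The count of genes called with both null lysates stayed at 0 in each direction under TMM, with the 8 libraries alone, under other minimums of reads and other totals, with no term for lysates and with the replicate block, and moved to 231 lower and 16 higher under DESeq2 with library totals and to 505 and 4 under DESeq2 with its own size factors. Leaving out 1 replicate gave from 0 to 1136 genes lower and from 0 to 4623 higher, the largest counts without LARP4 null replicate 1 and 97 and 3 without LARP4 null replicate 2. A replicate block for numbers shared across genotypes called 0 genes, and the differences between numbers 1 and 2 had an r of -0.057 between genotypes over genes, so the numbers do not pair them, whereas total input and pulldown of the same number deviated together (r = 0.87 in wild-type, 0.72 in LARP4 null).

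The median over all genes was -0.0428 under TMM and -0.0418 under DESeq2 with its own size factors. The short class had medians of -0.97 and -0.97 there, with 27 called lower under DESeq2 with library totals and 31 with its own size factors, and from 0 to 31 with a replicate left out. The long class had medians of -0.39 and -0.39, 2 called lower under DESeq2 with its own size factors, and from 0 to 5 in each direction with a replicate left out. For lysate 1 alone, alternatives chosen after seeing the data called 268 lower under TMM and 0 lower and 1 higher without either wild-type replicate; for lysate 2 they called 3226 lower and 2257 higher under TMM, and 583 to 815 lower and 2926 to 3522 higher without a wild-type replicate. LARP4 in total inputs ranged from -1.61 to -1.50 with a replicate left out and was no longer called.

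Of 61 named genes, SUPV3L1 turned to -0.19 under TMM, -0.19 under DESeq2 with its own size factors and ranged from -0.0445 to 0.081 with a replicate left out, and TBRG4 turned to -0.17 under both scalings. Of the histone, proteasome and nuclear RNA lists, H2BC6 ranged from -0.15 to 0.91, PSMA2 from -0.89 to 1.6 and MALAT1 from -0.22 to 2.16 with a replicate left out, the lowest without LARP4 null replicate 2. The cause was not tested. The number of lysates, 2 per genotype, limits the precision more than the depth does where the lysates differ beyond sampling noise (chi-square per degree of freedom from 40.8 to 284). The total without the mitochondrial genome equals the main total, as those genes are listed at 0.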

Other observations

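IRAK1BP1, which encodes an IRAK1-binding protein, was read by 2 and 4 counts in the wild-type total inputs, by 214 and 299 in those of LARP4 null cells and by 142 and 105 in those of AKAP1 null cells. In the pulldowns it was read by 2 and 0, by 166 and 108, and by 117 and 84 counts. Both null lines thus had more reads than the wild-type line, and the difference is not particular to LARP4 null cells. It was the 1 gene called higher in the total inputs of LARP4 null cells by edgeR (0.00707% of 14142), it passed the minimum of reads only through the group where it is high, and the call was lost without LARP4 null replicate 1 and without either wild-type replicate. No fold is given because the wild-type counts are close to 0. The gene was named after its values were seen.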
